A study of Mus musculus with 24 samples.

Results

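The cardiac left ventricle was compared with the brain cortex of wild-type mice, gene by gene, on Mouse Clariom S HT arrays, which hybridize labelled RNA to short DNA probes and give a single value per gene and tissue. The 6 ventricle arrays and the 6 cortex arrays of wild-type genotype were used, 12 of the 24 arrays in the series, and no array from a knockout mouse. Genes were read through gene-level probe sets, the groups of probes that together measure the transcripts of a locus, and those that carry exactly 1 gene symbol were described. These were 19572 of 22206 gene-level probe sets and covered 19505 different genes. The mice were Tatdn1+/+ (tatd+/+ in the labels) C57/B6 animals aged 2 months, 3 males and 3 females, and each of them gave both a ventricle and a cortex sample under the same animal code (M75-0, M75-1, M75-2, F76-1, F76-2 and F76-3). They were bred as wild-type descendants of parents with 1 deleted Tatdn1 allele, from a line in which exon 3 had been removed with Cre under the CAG promoter. Whole tissue was used, so that fewer cells of a type and less RNA per cell cannot be told apart in any value below.

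Ventricular myocardium is a pump that never rests. Its cardiomyocytes are packed with sarcomeres, the repeating units of actin and myosin filaments, with mitochondria that burn mostly fatty acids, and with a sarcoplasmic reticulum that releases and takes up calcium at each beat, and they share the tissue with a dense capillary bed and with fibroblasts. The cortex is built of excitatory and inhibitory neurons that signal through vesicle release and ionotropic receptors, of astrocytes that clear glutamate, of myelinating oligodendrocytes and of microglia, and it draws its energy mainly from glucose through a tight blood-brain barrier. Genes for the same enzyme or channel often exist in a muscle and a brain form.

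All values are on the log2 scale of the deposited table, where 1 unit is a 2-fold difference, and every difference is ventricle minus cortex. A probe set was called higher or lower when its p from limma, adjusted by the Benjamini-Hochberg method over the 22206 probe sets, was under 0.05. A tissue mean at or below the 95th percentile of the 23 background control probe sets, which was 4.28 in ventricle and 3.66 in cortex, is termed near background, and a difference that rests on such a mean is a lower bound.

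Arrays of a tissue resembled each other closely. Over all gene-level probe sets, Pearson's r was 0.977 to 0.986 between ventricle arrays and 0.981 to 0.992 between cortex arrays, against 0.745 to 0.764 between an array of each tissue, and the first principal component, which separated the tissues, held 89.6% of the variance. The brightest genes lay at the same height in both tissues, with the 95th percentile of the gene-level values at 8.24 to 8.29 on ventricle arrays and 8.25 to 8.28 on cortex arrays. Control RNAs that are added in fixed amounts did not. The median of the 18 hybridization controls was 8.61 to 9.47 on ventricle arrays and 7.13 to 8.40 on cortex arrays, and that of the 24 poly-A controls was 6.80 to 8.01 on ventricle arrays and 5.48 to 6.23 on cortex arrays, without overlap in either case. Setting the arrays level on these controls would lower every difference by 1.16 or 1.33, setting them level on 58 ribosomal protein and proteasome genes would lower it by 0.64, and setting them level on their medians would raise it by 0.41. Which of these scales is closest to the amount of RNA per cell was not tested, so a call below is said to hold on every scale when it kept its direction and its threshold under all 4 of them and under a further quantile normalization of the 12 arrays.

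**Figure D1:**
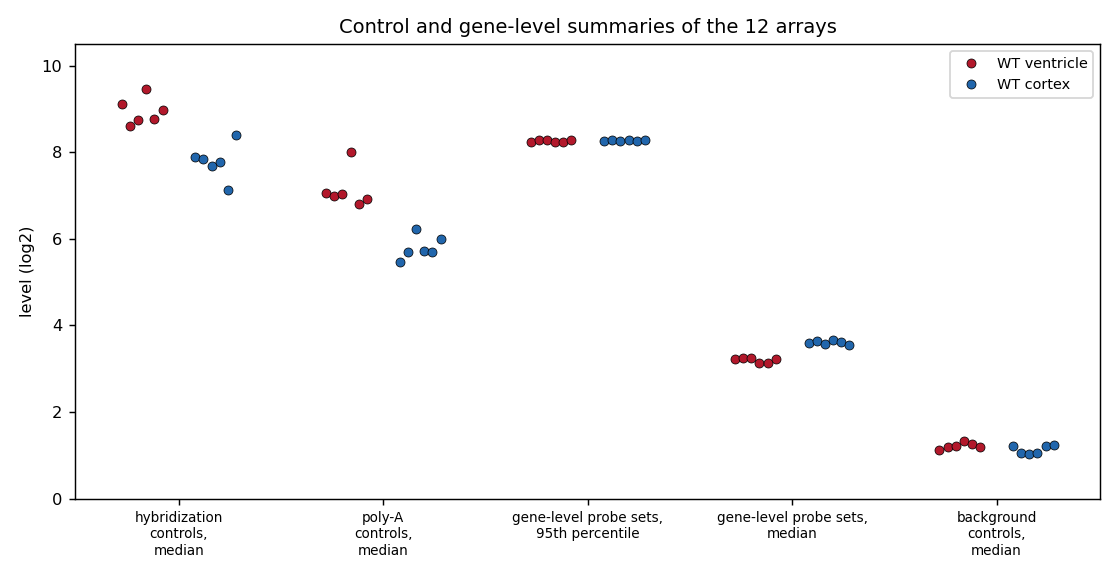
Log2 level per array (y axis) of the median of the hybridization, poly-A and background controls and of the 95th percentile and median of gene-level probe sets (x axis), each point 1 array, WT ventricle left and WT cortex right of each pair. The 95th percentile of the genes lies within 8.24 to 8.29 on all arrays, while the hybridization and poly-A controls are higher on every ventricle array than on every cortex array.

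The tissues differed in most of what was measured. Of the 22206 probe sets, 6498 (29.3%) were called higher in ventricle and 5833 (26.3%) lower, 12331 (55.5%) in all, and the median difference was 0.09. With a difference of at least 1 log2 unit, 3107 (14%) were higher and 3742 (16.9%) lower. Among the 19505 genes, taking the probe set of highest mean for each, the balance shifted with the size of the difference: 516 genes were higher and 1225 lower by 3 units or more, and 92 were higher and 206 lower by 6 units or more. Above background, 8870 probe sets were seen in ventricle and 11012 in cortex. Of these, 842 were above background in ventricle alone and 2984 in cortex alone, while 10352 (46.6%) were near background in both, among them 2208 of the calls higher in ventricle and 788 of those lower. On every scale, 1344 genes remained higher and 3991 remained lower, out of 5706 genes called higher and 5358 called lower. A higher call had to withstand a lowering by 1.33, and a lower call a raising by 0.41. Counts on every scale, here and below, can therefore not be compared between the directions. The arrays of the tissues did not overlap for 4244 probe sets higher in ventricle (19.1%) and 4454 lower (20.1%).

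**Figure D2:**
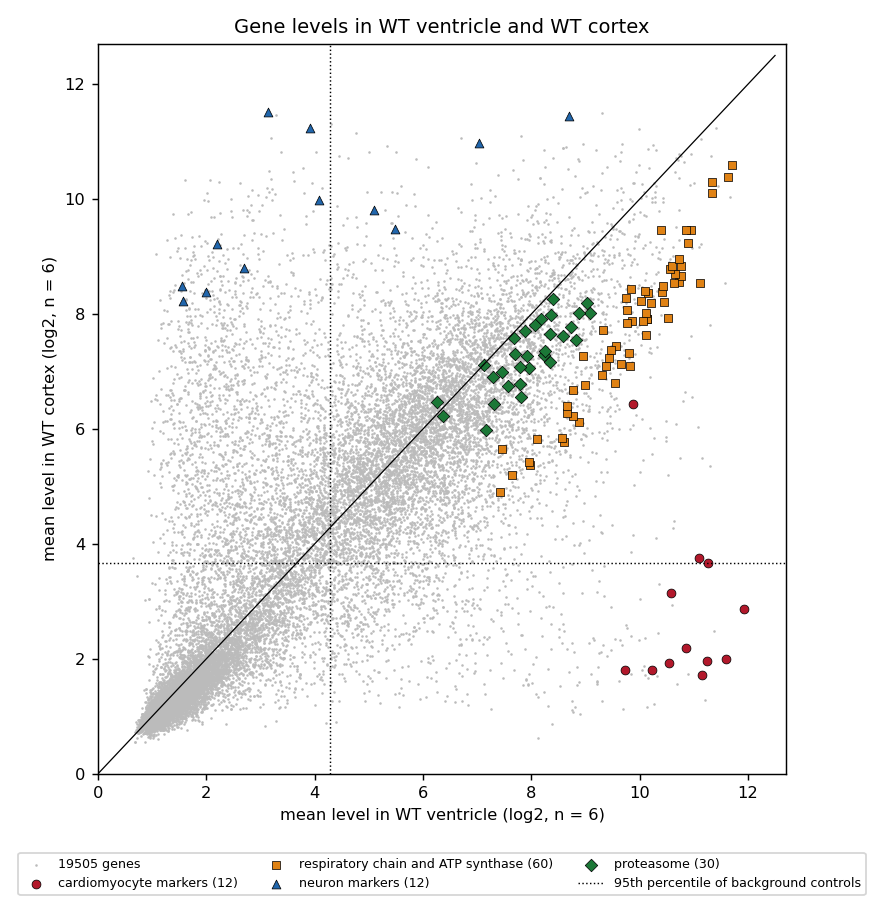
Mean log2 level of each gene in WT ventricle (x axis) and WT cortex (y axis), n = 6 arrays each, with the line of equal levels and, dotted, the background thresholds of 4.28 and 3.66. Cardiomyocyte markers lie at the lower right, neuron markers at the upper left, the 60 genes of the respiratory chain list below the line of equal levels, and proteasome genes close to it.

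The labels of both tissues were borne out by defining markers. All 12 cardiomyocyte markers were higher in ventricle by 3.45 to 9.60, and 9 of them were near background in cortex. All 12 neuron markers were lower in ventricle, by 2.75 to 8.38 log2 units in size, and 8 of them were near background there. Lower in ventricle were also 11 of 12 astrocyte markers (median difference -3.83), 11 of 11 measured oligodendrocyte markers (median -4.20) and 8 of 11 microglia markers (median -1.47). Over all probe sets, 29.3% were higher and 26.3% lower. The exception among the astrocyte markers was Gja1, the gap junction protein connexin 43, which couples astrocytes as well as cardiomyocytes. It read 9.28, 9.48 and 9.56 (lowest, median and highest array) in ventricle and 7.35, 7.74 and 7.98 in cortex, and differed by 1.77 ± 0.13 (standard error, adjusted p = 1.3e-09, limma). The tissues did not overlap for Gja1, and the call was lost with arrays set level on the poly-A controls.

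Markers of tissues that a dissection could include were checked next. Of 6 atrial markers, Sln and Bmp10 were near background in both tissues, with differences of 0.13 and 0.34 that were not called. Myl7 was near background in both tissues as well, but was called higher in ventricle. Nppa, the atrial natriuretic peptide, was also called higher and lay far above background in ventricle. It read 9.02, 10.15 and 10.69 in ventricle against 1.84, 2.38 and 2.79 in cortex. The other two members were lower in ventricle, Myl4, an atrial light chain, by 1.39 with a mean of 4.91 in ventricle and 6.30 in cortex, and Dkk3 by 6.31. Of 10 skeletal muscle markers, 4 were higher in ventricle and 1 lower, against 29.3% and 26.3% of all probe sets. Past 1 log2 unit were Ckm and Acta1, which the ventricle also uses and which were higher, and Pvalb, which was lower. Myh4, Myh1, Actn3 and Mylpf were near background in both tissues. On the side of the cortex, all 6 measured striatal markers were above background, from 6.42 for Drd2 to 10.13 for Penk, so that the part of deeper regions in these cortex samples was not tested. Of 6 markers of choroid plexus and ependyma, 4 were near background in cortex, among them Ttr, the leading transcript of the choroid plexus, while Kcnj13 and Clic6 had cortex means of 4.71 and 4.08 and were lower in ventricle by 2.14 and 2.33. Of 6 meningeal markers, 5 were above background in cortex. In ventricle 4 were lower, where 26.3% of all probe sets were, led by Slc22a8 (-3.80) and Slc6a13 (-2.64). The part of meninges in these samples was not tested. On ventricle arrays, 202 genes that were near background there and at least 6 units lower than in cortex had a median level of 1.92 to 2.22 per array. The highest of these medians belonged to mouse F76-2, where Snap25 read 5.96 against 2.82 to 4.68 in the other 5 ventricles.

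**Figure D3:**
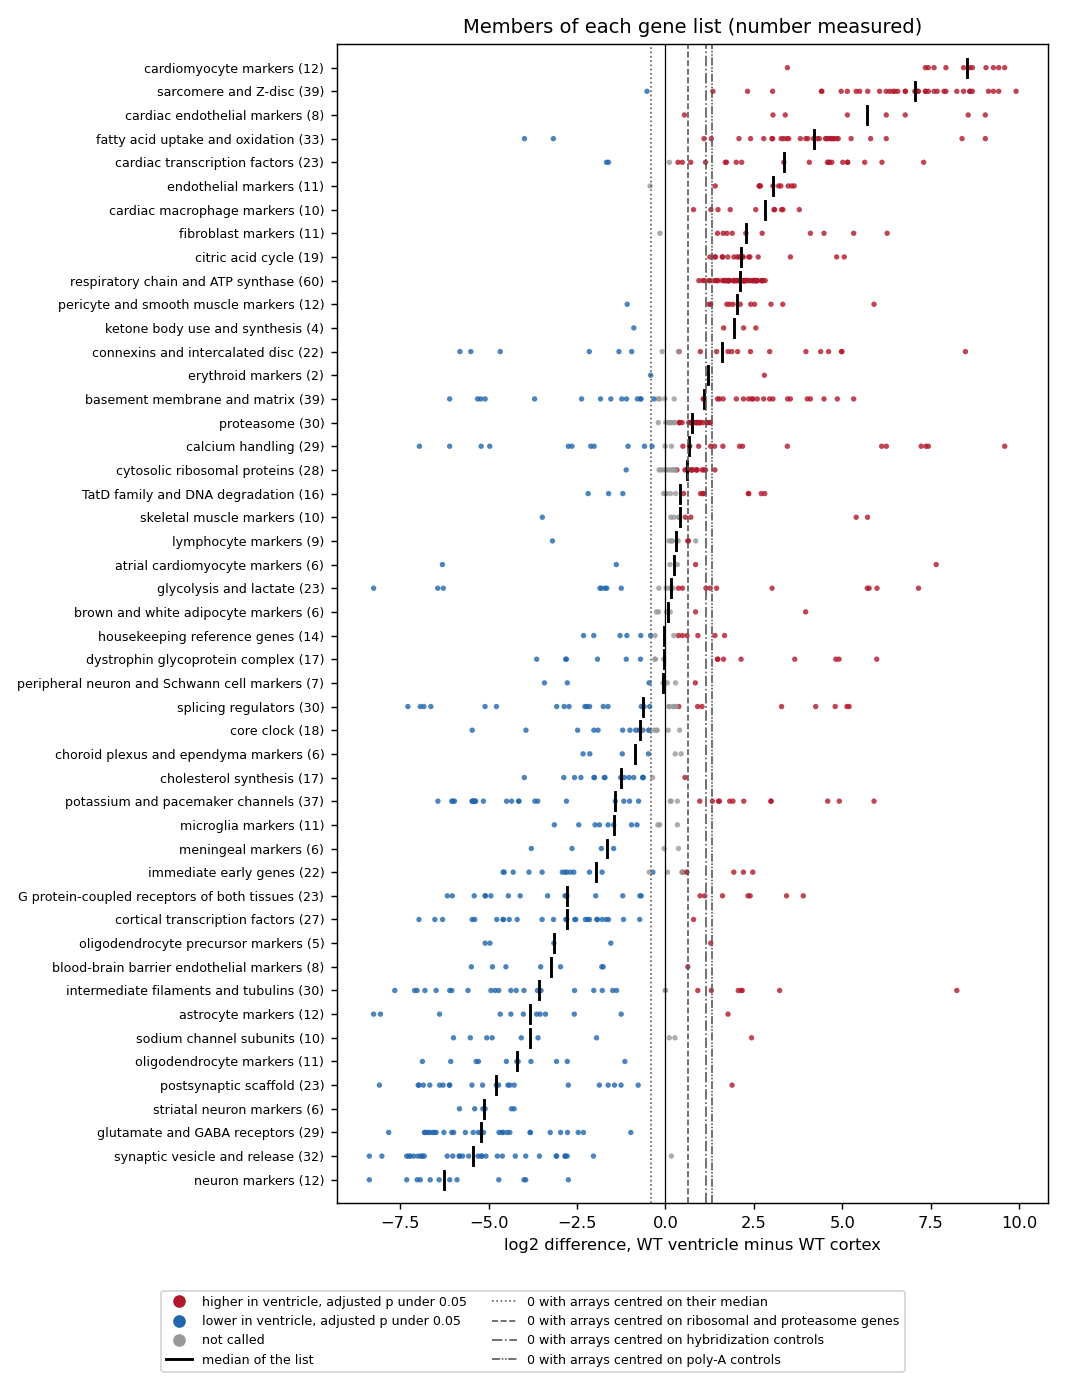
Log2 difference, WT ventricle minus WT cortex (x axis), of the measured members of 48 gene lists (rows, number of members in brackets), coloured by call, with the median of each list as a black bar. Vertical lines mark where 0 would lie with arrays set level on other features. Lists of the contractile apparatus and of fatty acid use lie right of all these lines and lists of the synapse left of all of them, while ribosomal proteins and the proteasome lie between.

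Many of the genes furthest above cortex belong to the contractile apparatus, which gave 7 of the 15 highest. Of 39 measured sarcomere and Z-disc genes, 38 were higher in ventricle and 1 was lower, where 29.3% and 26.3% of all probe sets were called in these directions, and 37 of the 38 held on every scale. Their median difference was 7.06, against 0.09 over all probe sets. Myoz2, a calcineurin-binding protein of the Z-disc, differed most of all 19505 genes. It read 11.16, 11.19 and 11.33 in ventricle and 1.04, 1.31 and 1.50 in cortex, and differed by 9.92 ± 0.11 (standard error, adjusted p = 7.32e-20, limma). No array of a tissue came near the range of the other.

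Thick filament genes were among the highest as well. Myh6, the fast alpha heavy chain, read 10.96, 11.28 and 11.39 in ventricle and 1.79, 2.02 and 2.06 in cortex, a difference of 9.28 ± 0.12 (adjusted p = 1e-19, limma). Myh7, the slow beta heavy chain that is the main form in the ventricle of large mammals, was well above background in ventricle, at 8.04, 9.25 and 9.44 in ventricle against 1.76, 2.19 and 2.98 in cortex. Levels of different probe sets are not compared here, since brightness also depends on the probes. The lowest ventricle value of Myh7 came from M75-1, which also had the lowest Myh6. The light chains followed, with Myl2, the regulatory chain of the ventricle, at 9.43 ± 0.12 and Myl3, its essential chain, at 8.68 ± 0.18 above cortex, as did Mybpc3, which tethers myosin, at 8.61 ± 0.13. Csrp3, a LIM protein of the Z-disc, and Ankrd1, which binds titin, differed by 9.14 and 8.61. Outside the contractile list, the 15 highest held Pln, Cd36, Ckmt2, Fabp4 and Dsp, which are described with their own groups, and Popdc2, a membrane protein that binds cyclic AMP (9.16), Mb, the oxygen-binding myoglobin (9.07), and Hspb7, a small heat shock protein (8.90).

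Thin filament and scaffold genes were of the same order. Cardiac actin Actc1 (7.35 ± 0.18), troponin I Tnni3 (8.43), troponin T Tnnt2 (7.60) and troponin C Tnnc1 (6.34) were higher, and the desmin gene Des, whose filaments link Z-discs, was higher by 8.24. Titin, the spring of the sarcomere, varied among ventricles more than its neighbours, with Ttn at 9.07, 9.61 and 10.57 in ventricle and 1.44, 1.75 and 2.21 in cortex (difference 7.93 ± 0.24). The smallest differences were those of 3 genes above background in both tissues: Tpm1, a tropomyosin, was higher by 3.03, Tmod1, which caps actin filaments, by 2.32 and Tpm2 by 1.34. The only member called lower was Cap2, an actin-binding protein, by 0.52 log2 units, and that call was lost on the median-centred scale.

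The start regions of such genes are shown because the 2 extreme ends of the comparison differed in letters near the start site. RefSeq promoters of GRCm38.p6, from 250 bases before to 50 after the annotated start, were matched by gene ID to 15691 of the 19505 genes, taking the first listed for each gene. Myoz2 carries a MEF2 box, the A- and T-rich element read by MEF2 factors, and Myh6 carries TATAAA, the letters of the TATA box. Actc1 carries both TATAAA and a CArG box, the element read by serum response factor. Counted from the annotated start, the MEF2 box of Myoz2 begins at -33 and the CArG box of Actc1 at -47. TATAAA begins after that start, at 1 in Myh6 and at 33 in Actc1, and whether it acts as a TATA box there was not tested. Capitals mark these elements in the sequences, which run 5′ to 3′ on the strand of the gene, for Myoz2 at chr3:123034938-123035237 (minus strand), Myh6 at chr14:54966558-54966857 (minus strand) and Actc1 at chr2:114052826-114053125 (minus strand).
Myoz2: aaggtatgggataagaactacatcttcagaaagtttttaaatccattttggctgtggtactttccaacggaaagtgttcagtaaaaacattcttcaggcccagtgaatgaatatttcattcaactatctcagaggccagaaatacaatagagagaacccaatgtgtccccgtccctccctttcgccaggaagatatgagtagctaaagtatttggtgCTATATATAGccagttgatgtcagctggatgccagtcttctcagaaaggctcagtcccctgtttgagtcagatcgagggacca
Myh6: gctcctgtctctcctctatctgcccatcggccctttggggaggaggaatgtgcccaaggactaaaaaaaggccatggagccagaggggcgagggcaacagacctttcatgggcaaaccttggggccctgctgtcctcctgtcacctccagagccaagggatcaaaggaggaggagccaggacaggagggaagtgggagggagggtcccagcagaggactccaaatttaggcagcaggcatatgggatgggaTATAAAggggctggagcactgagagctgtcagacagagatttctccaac
Actc1: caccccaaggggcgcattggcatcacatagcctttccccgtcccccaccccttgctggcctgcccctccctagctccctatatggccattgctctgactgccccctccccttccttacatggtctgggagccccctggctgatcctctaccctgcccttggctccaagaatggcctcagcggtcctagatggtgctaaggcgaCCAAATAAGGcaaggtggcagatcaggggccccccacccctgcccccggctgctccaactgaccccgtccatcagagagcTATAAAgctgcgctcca
On the cortex side the element shown is the core of the RE1 site, which the repressor REST reads outside neurons, searched as AGCACC, any 2 bases and GGACAG. It stands in capitals in the promoter of Gria2 at chr3:80802786-80803085 (minus strand), where it lies on the opposite strand, and of Gad2 at chr2:22622077-22622376 (plus strand).
Gria2: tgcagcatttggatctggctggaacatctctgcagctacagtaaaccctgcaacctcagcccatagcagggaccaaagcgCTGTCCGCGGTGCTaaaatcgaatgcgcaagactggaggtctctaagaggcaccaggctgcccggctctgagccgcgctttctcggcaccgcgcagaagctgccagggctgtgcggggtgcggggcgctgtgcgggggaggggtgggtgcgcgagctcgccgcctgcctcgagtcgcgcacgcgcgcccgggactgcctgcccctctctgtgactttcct
Gad2: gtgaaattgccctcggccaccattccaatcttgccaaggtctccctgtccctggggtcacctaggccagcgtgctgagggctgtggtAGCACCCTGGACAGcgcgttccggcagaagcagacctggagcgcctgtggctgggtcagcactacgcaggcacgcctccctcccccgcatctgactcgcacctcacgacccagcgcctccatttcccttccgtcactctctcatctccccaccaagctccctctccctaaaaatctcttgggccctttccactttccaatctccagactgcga
A CArG box was searched as CC, 6 bases of A or T and GG. All elements were searched on both strands, and a MEF2 box can share letters with TATAAA. A MEF2 box was found in 28 of the 204 promoters of genes at least 4 units higher in ventricle (13.7%), against 11 of 621 for genes at least 4 units lower (1.77%), 2.79% of all 15691 and 1.76% of the 8784 whose genes were above background in either tissue. A CArG box stood in 4.9% of the promoters of the higher group, 0.483% of those of the lower group, 1.49% of all and 1.38% of those above background. TATAAA stood in 20.6% of the higher group, 8.53% of the lower group, 13.1% of all and 7.17% of those above background, so that the share of the lower group lay below the share of all and above that of expressed genes. The RE1 letters were found in 0 of 204 promoters of the higher group, in 7 of 621 of the lower group, in 12 of all 15691 and in 10 of the 8784 above background. Promoters of the higher group were also poorer in CpG, with a median ratio of observed to expected CpG of 0.339, against 0.652 in the lower group, 0.605 over all and 0.770 over those above background. These are counts of letters in a window, not of bound sites.

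Calcium handling genes split between the tissues. Of 29 measured, 16 were higher in ventricle and 11 lower (29.3% and 26.3% of all probe sets were), 9 in each direction on every scale, with a median of 0.68. Higher were the parts of the sarcoplasmic reticulum: Pln, which brakes the calcium pump, at 11.45, 11.61 and 11.69 in ventricle and 1.47, 2.09 and 2.19 in cortex (difference 9.60 ± 0.13, adjusted p = 3.54e-19, limma), Casq2, which stores calcium (7.44), Trdn (7.37) and Hrc (7.23), which sit at the release site, and Jph2, which ties the reticulum to the cell membrane (6.12). The pump and the channel themselves serve neurons too. Atp2a2, the pump, was at 11.58, 11.67 and 11.73 in ventricle and at 9.89, 10.05 and 10.13 in cortex, and Ryr2, the release channel, at 9.70, 9.87 and 10.05 in ventricle and at 6.06, 6.35 and 6.87 in cortex. Both were called higher, by 1.62 ± 0.11 and 3.45 ± 0.14, but the call of Atp2a2 was lost with arrays set level on the hybridization or the poly-A controls.

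Lower in ventricle were the plasma membrane pumps and exchangers of neurons. Atp2b2 was lower by 6.96, Atp2b3 by 4.97, and Slc8a2, a brain sodium-calcium exchanger, by 5.21 log2 units. Camk2a and Camk2b, the kinase subunits that store synaptic calcium signals, were lower by 2.75 and 6.11. Camk2a was far from absent in the ventricle, at 8.55, 8.61 and 9.08 against 11.25, 11.45 and 11.68 in cortex.

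Genes of mitochondrial energy metabolism shifted largely in one direction. All 60 measured members of a list of respiratory chain and ATP synthase genes were called higher in ventricle, where 29.3% of all probe sets were, 59 of them by at least 1 unit, with differences between 0.94 for Atp5d and 2.82 for Sdhc and a median of 2.10. On every scale 40 of the 60 held. The list leaves out, among others, the subunits of cytochrome oxidase that exist in a muscle form. Taking all 88 measured genes whose symbols belong to these complexes, a choice made after the values were seen, 83 were higher, 2 lower (Cox6a1 and Cox8a) and 3 not called, all 3 near background in both tissues, with a median of 2.06. All 19 citric acid cycle genes were higher as well, with a median of 2.15, and 13 held on every scale. Idh2, the mitochondrial NADP-dependent isocitrate dehydrogenase, stood out at 11.01, 11.06 and 11.18 in ventricle and 5.87, 6.05 and 6.09 in cortex, a difference of 5.06 ± 0.11 (adjusted p = 2.74e-17, limma). Every other member but Pdk4 and Suclg2 lay within 1.25 to 2.62.

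Genes of fatty acid uptake and oxidation were mostly higher in ventricle. Of 33 measured, 31 were higher and 2 lower (background 29.3% and 26.3%), 29 and 2 on every scale, with a median of 4.19. Cd36, the fatty acid carrier of the cell membrane, read 10.19, 10.25 and 10.38 in ventricle and 1.09, 1.19 and 1.46 in cortex, a difference of 9.05 ± 0.11 (adjusted p = 1e-19, limma). Lpl, which frees fatty acids from lipoproteins, was higher by 6.25, Cpt2 and Slc25a20, which bring them into the mitochondrion, by 4.89 and 4.56, and the beta-oxidation enzymes Acaa2, Hadh, Acadl and Acadvl by 5.25, 4.75, 4.66 and 4.60. The 2 members that were lower, Cpt1c (by 3.99) and Acsl6 (by 3.17), are the brain forms of their families. Of 4 measured genes of ketone use and synthesis, 3 were higher, Acat1 by 2.56, Oxct1 by 2.21 and Bdh1 by 1.65, and Slc16a6, a carrier, was lower by 0.90 and near background in ventricle.

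Glycolysis did not move as a block. Of 23 measured genes, 10 were higher, 8 lower and 5 not called, against 29.3% higher and 26.3% lower over all probe sets, with a median of 0.16. Aldoa, which serves the middle of the pathway, was at 10.94 ± 0.07 in ventricle and 10.78 ± 0.19 in cortex (SD, n = 6 each) and was not called. What differed was which member of a family was used. Of 30 pairs of related genes written down with the muscle form first, 27 had both members measured. In 17 of these the first was called higher and the second lower in ventricle, and in 11 both calls held on every scale.

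**Figure D4:**
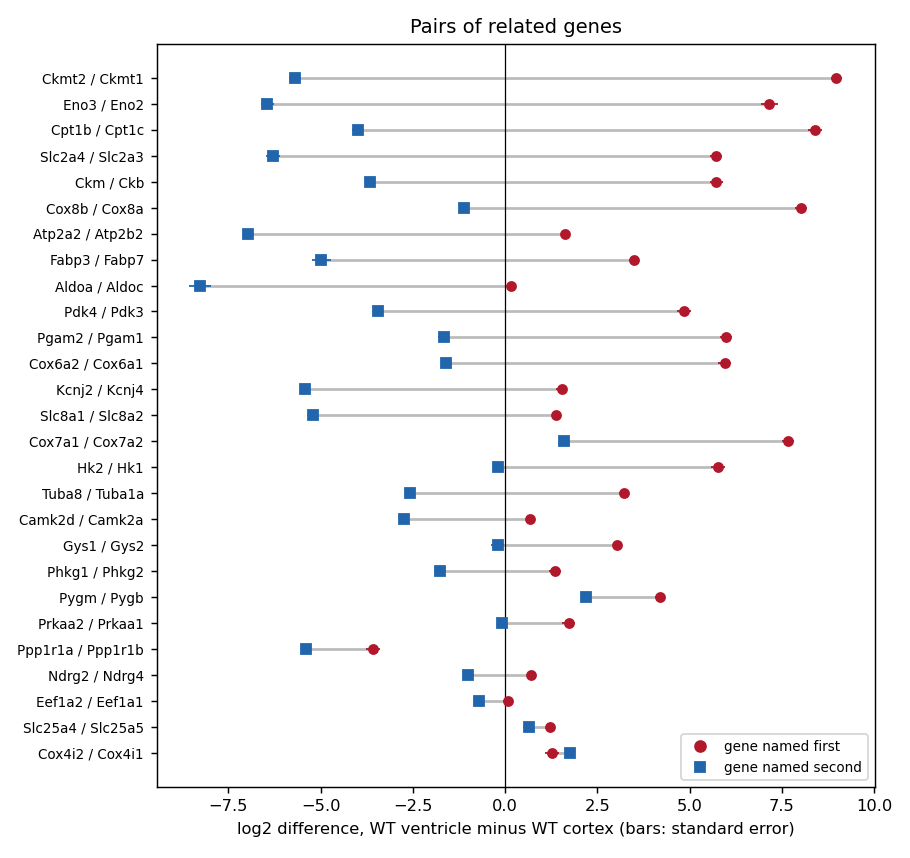
Log2 difference, WT ventricle minus WT cortex (x axis, bars are standard errors), of both members of 27 pairs of related genes (rows), the first as circles and the second as squares, ordered by the gap between them. The widest gaps are those of Ckmt2 and Ckmt1 (8.97 and -5.70) and of Eno3 and Eno2 (7.16 and -6.44).

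Creatine kinase, which buffers ATP, was split in both compartments. In mitochondria, Ckmt2 was higher by 8.97 ± 0.15 and Ckmt1 lower (-5.70 ± 0.16). In the cytosol, Ckm read 9.51, 9.96 and 10.05 in ventricle and 3.38, 4.25 and 4.62 in cortex, and Ckb read 6.78, 6.97 and 7.22 in ventricle and 10.48, 10.66 and 10.77 in cortex. Thus Ckb was higher in cortex on every array yet still above background in ventricle. Enolase, which acts late in glycolysis, was split more sharply. Eno3 read 9.52, 9.77 and 9.98 in ventricle and 1.58, 2.58 and 3.30 in cortex, and Eno2 read 1.11, 1.53 and 2.26 in ventricle and 7.69, 8.09 and 8.36 in cortex, so that each was near background in the other tissue.

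Glucose carriers and other enzymes followed. The insulin-responsive carrier Slc2a4 was higher by 5.71 ± 0.17 and the neuronal carrier Slc2a3 lower (-6.29 ± 0.18), Pgam2 was higher by 5.99 and Pgam1 lower (-1.66), and the carnitine transferase Cpt1b was higher by 8.39 and its brain relative Cpt1c lower. Cytochrome oxidase, the last complex of the chain, differed in its small subunits: Cox6a2 and Cox8b were higher by 5.95 and 8.01, while Cox6a1 and Cox8a were lower (-1.60 and -1.12). For Cox7a1 and Cox7a2 both members were higher, by 7.66 and 1.60. Aldolase showed 1 side only, as Aldoc, the astrocyte form, differed by -8.26 ± 0.30 while Aldoa was not called, and the same held for hexokinase, with Hk2 at 5.76 and Hk1 at -0.19, not called.

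The genes furthest below cortex belonged to neurons and astrocytes. Nrsn1, a neuronal vesicle protein, had the lowest difference of all genes, at 1.09, 1.61 and 2.01 in ventricle and 10.24, 10.35 and 10.37 in cortex (-8.73 ± 0.14, adjusted p = 2.4e-18, limma). Syt1, the calcium sensor of vesicle release, read 2.32, 3.22 and 3.80 in ventricle and 11.38, 11.53 and 11.66 in cortex, and Slc1a2, the main glutamate carrier of astrocytes, read 1.84, 2.12 and 2.67 in ventricle and 10.08, 10.34 and 10.46 in cortex. All 15 genes with the lowest differences were near background in ventricle, so that these sizes are lower bounds. Frrs1l, Vsnl1, Cnksr2, Nell2, Elmod1, Syn1, Brinp1, Lmo3, Gng3, Sult4a1, Hpca and Aldoc completed the 15, between -8.36 and -7.86.

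The release machinery was lower almost without exception. Of 32 measured genes of the synaptic vesicle and of release, 31 were lower in ventricle, where 26.3% of all probe sets were, all 31 on every scale, with a median of -5.44. The exception was Unc13b, a priming factor, which was above background in both tissues with a difference of 0.17 that was not called. Snap25, a membrane fusion protein, was lower by 7.32 log2 units, Syp, an integral protein of the vesicle, by 7.0, and the active zone proteins Pclo and Rims1 by 7.12 and 6.18. Rab3a and Vamp2, which dock and fuse vesicles in many secretory cells, were lower by 2.84 each and had means of 7.85 and 7.67 in ventricle, far above background. Of 23 postsynaptic scaffold genes, 22 were lower and held on every scale (median -4.79), and Homer2, a scaffold of glutamate receptors that also binds calcium release channels, was higher by 1.88.

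Receptors of fast transmission were lower in all 29 measured cases, where 26.3% of all probe sets were, and all 29 held on every scale (median -5.23). Gria1 and Gria2, subunits of the AMPA-type glutamate receptor, differed by -7.83 ± 0.24 and -6.49 ± 0.12, Grin2b, of the NMDA type, by -6.68, and Gabra2, of the GABA-A type, by -6.72. Gria1 read 0.50, 1.50 and 2.34 in ventricle and 9.10, 9.41 and 9.54 in cortex. The enzymes that make GABA, Gad1 and Gad2, were lower by 6.66 and 6.40. Their counterpart for glutamate, the vesicular carrier Slc17a7, was lower by 3.95 yet above background in ventricle, at 6.67, 7.10 and 7.24 against 10.74, 10.97 and 11.18 in cortex.

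Ion channels and hormone receptors divided by subunit. Of 37 potassium and pacemaker channel genes, 12 were higher and 22 lower, 7 and 22 on every scale, where 29.3% of all probe sets were higher and 26.3% lower. The subunits of the ATP-sensitive channel Abcc9 and Kcnj8 were higher by 5.90 and 2.98, Kcnq1, which carries the slow repolarizing current, by 4.92, and Kcnh2, of the rapid one, by 1.91. The neuronal Kcnip4, Kcnv1 and Kcnq3 were lower by 6.44, 6.01 and 5.97. Of 10 sodium channel genes, 7 were lower, among them the brain alpha subunits Scn1a (-5.06) and Scn2a (-4.90), and Scn7a alone was higher, by 2.44. Among 23 receptors coupled to G proteins, 7 were higher, a share close to the 29.3% of all probe sets, and 16 lower (26.3% of all). Higher were Agtr1a, for angiotensin II (3.90), Aplnr, for apelin (3.42), and Chrm2, the cardiac muscarinic receptor (2.40), and lower were the cortical muscarinic receptor Chrm1 (-6.17), the cannabinoid receptor Cnr1 (-6.03) and the serotonin receptor Htr2a (-5.41).

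Transcription factors were split by tissue as well. Of 23 cardiac factors, 20 were higher and 2 lower (background 29.3% and 26.3%), 14 and 2 on every scale, with a median of 3.35. Tbx20 read 8.66, 8.87 and 8.91 in ventricle and 0.95, 1.55 and 2.11 in cortex, a difference of 7.30 ± 0.16 (adjusted p = 3.25e-17, limma). Gata4, Gata6, Nkx2-5, Tbx5 and Hand2, which act together in heart development, were higher by 6.13, 5.15, 4.71, 4.58 and 4.62, and Myocd, the partner of serum response factor, by 5.64. Mef2c, named for muscle and also active in cortical neurons, was lower, at 8.44, 8.59 and 8.69 in ventricle and 9.79, 10.23 and 10.45 in cortex (-1.61 ± 0.13, adjusted p = 2.68e-09, limma).

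Of 27 cortical factors, 26 were lower and 25 of them held on every scale (median -2.79). Tbr1, a factor of deep-layer excitatory neurons, differed by -6.97 ± 0.13, followed by Neurod6 (-6.53), Lhx2 (-6.31), Rorb (-5.47) and Fezf2 (-5.40). Splicing regulators, which set the exon choice of both tissues, were divided: 8 of 30 were higher, no larger a share than the 29.3% over all probe sets, and 17 lower (26.3% over all). Rbm20 and Rbm24, splicing factors of titin and other muscle transcripts, were higher by 5.13 and 3.28, and Rbpms by 5.20. The neuronal factors Celf4, Rbfox3 and Elavl3 were lower by 7.29, 6.94 and 6.84, whereas Srrm4, also known from neurons, was higher by 1.03, with means of 4.84 in ventricle and 3.80 in cortex, a call that did not hold on every scale.

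The cytoskeleton and the junctions gave the same division. Of 30 intermediate filament and tubulin genes, 7 were higher (29.3% of all probe sets were) and 21 lower (26.3%), 5 and 21 on every scale. Ina, Nefm and Nefl, of neurofilaments, were lower by 7.66, 7.10 and 7.03, and Tubb3 and Tubb4a, neural beta-tubulins, by 6.10 and 6.81. Against these stood Tuba8, an alpha-tubulin of muscle, at 3.23 and the lamin gene Lmna at 2.17. In the intercalated disc, which joins cardiomyocytes end to end, Dsp, Dsc2, Dsg2 and Pkp2 of the desmosome were higher by 8.49, 4.98, 4.61 and 3.97. Ctnna3, the catenin of that disc, was higher by 4.99, and its neural relatives Ctnna2 and Ctnnd2 were lower by 5.82 and 5.51. Of 17 genes of the dystrophin complex, which anchors the cell membrane, 8 were higher and 6 lower (29.3% and 26.3% over all probe sets), with Sgca at 5.98 and Cav3 at 4.82, and Dtnb at -3.65.

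Cell types that both organs share also differed. Of 11 endothelial markers, 10 were higher in ventricle and 9 held on every scale, with a median of 3.04. Over all probe sets, 29.3% were higher and 26.3% lower. Kdr, the receptor for vascular endothelial growth factor, read 7.73, 8.15 and 8.40 in ventricle and 3.98, 4.40 and 4.85 in cortex (3.64 ± 0.17, adjusted p = 1.03e-12, limma). The eleventh, Cldn5, the claudin that seals the blood-brain barrier, was not called (-0.43), and was called lower with the mouse as a block in the fit. Of 8 genes typical of brain endothelium, 7 were lower, led by Slco1c1 (-5.49) and Mfsd2a (-4.90), which carry thyroxine and lipids across the barrier, and Abcb1a, an efflux pump of the barrier, was higher by 0.63, a call that did not hold on every scale. In contrast, all 8 genes typical of cardiac endothelium were higher, among them Fabp4 (8.57), Aqp1 (6.78) and Gpihbp1 (5.15). Pericyte and smooth muscle markers were higher in 11 of 12 cases. Vtn was the exception, lower by 1.08.

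Fibroblast and matrix genes were divided. Of 11 fibroblast markers, 10 were higher, with Dpt at 6.27, Dcn at 5.32 and Lum at 4.48. The basement membrane genes Hspg2, Lamb2, Nid1 and Lama2, which enwrap cardiomyocytes and capillaries, were higher by 4.86, 4.01, 3.53 and 3.45. Lower were the parts of the perineuronal matrix, Ncan (-6.11), Tnr (-5.32), Hapln4 (-5.23) and Bcan (-5.10). Of the 39 measured matrix genes, 21 were higher and 14 lower, 16 and 10 on every scale, with a median of 1.10 (29.3% of all probe sets were higher and 26.3% lower).

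Markers of resident macrophages went in both directions. All 10 markers of cardiac macrophages were higher in ventricle, where 29.3% of all probe sets were. Lyve1 was higher by 3.79, Cd163 by 3.29, Mrc1 by 3.09 and Folr2 by 3.07, and all 10 were near background in cortex. In ventricle 4 of the 10 were near background too, and 6 held on every scale. The microglial P2ry12, Cx3cr1 and P2ry13 were lower by 3.14, 2.45 and 1.99. The complement genes C1qa, C1qb and C1qc, which both populations make, were above background in both tissues with differences of -0.16, -0.21 and 0.34 that were not called. Lymphocyte markers were near background in ventricle in all 9 cases. Alas2, of the haem pathway in red cell precursors, was higher in ventricle by 2.80. Bpgm, the only other erythroid marker measured, was called lower, by less than 1 log2 unit. The haemoglobin genes Hba-a1, Hbb-bs and Hbb-bt were not measured.

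Genes that every cell uses were closer to level, and their direction depended on the scale. Of 28 ribosomal protein genes, 17 were higher, 1 lower and 10 not called, with a median of 0.61. Of 30 proteasome genes 22 were higher and 8 not called, with a median of 0.76. Over all probe sets, 29.3% were higher and 26.3% lower. None of the higher calls in either list held on every scale, but one of these scales is set on these same genes, which brings their differences near 0 by construction. The housekeeping list, from which reference genes for PCR are often taken, had 6 of 14 members higher and 6 lower, between -2.32 for Ywhaz and 1.67 for Sdha. Actb, the usual actin reference, had means of 9.67 ± 0.06 in ventricle and 10.95 ± 0.13 in cortex (SD, n = 6 each), a difference of -1.28 that held on every scale, and Gapdh differed by 0.37, with a direction that did not hold. A shift in favour of cortex was seen for cholesterol synthesis, which the brain carries out for itself behind its barrier: 15 of 17 genes were lower in ventricle, 12 of them on every scale, with a median of -1.27, and Sqle, squalene epoxidase, read 1.39, 1.94 and 2.29 in ventricle and 5.59, 5.75 and 6.35 in cortex (-3.99 ± 0.19, adjusted p = 1.15e-12, limma).

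Tatdn1, a putative nuclease that is the subject of the mouse line, was found in both tissues. It read 6.53, 6.87 and 7.15 in ventricle and 5.29, 5.81 and 6.15 in cortex, a difference of 1.08 ± 0.16 (adjusted p = 1.53e-05, limma). An exact permutation test of the 12 arrays, two-sided, gave p = 0.00216, the smallest that this number of arrays can give. Its relatives were higher as well, with Tatdn2 at 1.05 ± 0.16 and Tatdn3 at 0.99 ± 0.23. The cortex mean of Tatdn3 was near background, so that its difference is a lower bound. The arrays of the tissues did not overlap for any of the 3, which was also so for 19.1% of all probe sets in this direction. All 3 differences lay below the shift of the hybridization and poly-A controls, so that none of these calls held on every scale. Among other genes of DNA degradation, the mitochondrial Endog and Mgme1 were higher by 2.36 and 2.34. Aifm1, the apoptosis-inducing flavoprotein of mitochondria, was higher by 2.81, and Dnase1l1 was higher too. Exog was lower by 2.19, and Exd2 and Fen1 were lower as well. Of 16 measured genes of this list, which includes the TatD family, 8 were higher, 3 lower and 5 not called. Over all probe sets, 29.3% were higher and 26.3% lower.

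Gene length moved with direction. The genomic span of a gene from RefSeq was 20.9 kb in the median for genes at least 1 unit higher in ventricle and 37.2 kb for genes at least 1 unit lower, against 17.8 kb over all genes and 26.1 kb over those above background in either tissue. At 4 units or more the medians were 21.7 and 55.9 kb. Of genes above background that span over 200 kb, 14.8% were higher and 58.3% lower by at least 1 unit (median difference -1.70, 743 genes), and of those up to 5 kb, 28.9% were higher and 24.9% lower (median 0.14, 1147 genes).

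Mice of a tissue differed little for most genes and a great deal for a few. Over 7328 genes above background in both tissues, the median SD among 6 mice was 0.228 in ventricle and 0.231 in cortex, and 48.3% of the genes had the higher SD in ventricle. Apart from a gene of the Y chromosome, the most variable ventricle genes were F830016B08Rik (SD 1.80) and Gm4841 (1.71), Angptl4 (1.30), the clock repressor Nr1d1 (1.27), the nuclear receptors Nr4a3 (1.24) and Nr4a1 (1.23) and Lncpint (1.09). The clock gene rested on a single mouse. Nr1d1 read 5.79 in the ventricle of F76-3 against 8.59 to 9.12 in the other 5 ventricles, while the cortex of the same mouse read 8.20, within 8.20 to 9.18 for all 6 cortices.

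In cortex the most variable genes included activity-dependent ones. Npas4, a factor switched on by neuronal firing, was at 2.63 in M75-1 and at 5.50 to 6.58 in the other 5 cortices, and Egr2, of the same kind, had an SD of 1.29. They were followed by AW551984 (1.15), Cdhr1 (1.14), Agt (1.07), Nmbr (1.07), Rspo3 (1.03) and Dlk1 (1.03). As a group, 13 of 22 immediate early genes were lower in ventricle and 5 higher, where 26.3% of all probe sets were lower and 29.3% higher, with Egr1 at -4.59 ± 0.21 and Arc at -4.56. The Kruppel-like factors Klf4 and Klf2, which respond to flow in endothelium, were higher by 2.47 and 2.21.

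**Figure D5:**
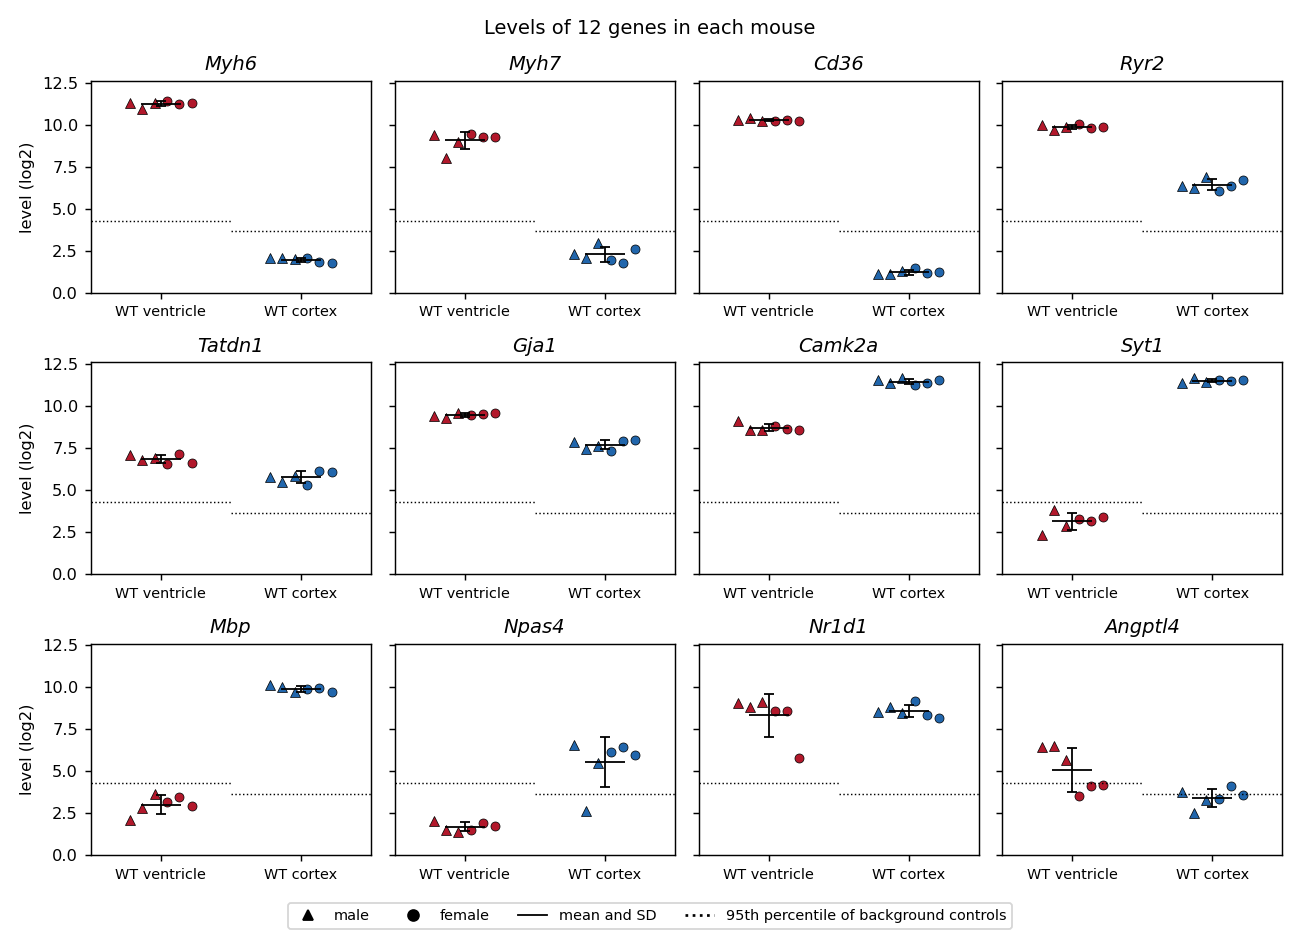
Log2 level (y axis) of 12 genes in each mouse, WT ventricle left and WT cortex right in each panel, triangles male and circles female, with the mean and SD of 6 mice and the background thresholds dotted. Myh6 and Cd36 are even among mice, Nr1d1 has a single low ventricle and Npas4 a single low cortex.

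The tissue difference was next set apart by sex, with 3 males and 3 females in each tissue. The codes of all males begin with M75 and those of all females with F76. What the number in the code stands for is not given, so that sex and this number cannot be told apart. No probe set passed the limma test for a tissue difference that depends on sex (0 of 22206, adjusted p under 0.05), 942 (4.24%) had an unadjusted p under 0.05, and a trended robust fit by limma called 2, Gm4841 and Angptl4 (adjusted p = 0.032 for both). In the fit used throughout the smallest adjusted p by limma, 0.208, was again theirs. Gm4841 had a tissue difference of 1.41 in males and 4.56 in females, and Angptl4, an inhibitor of lipoprotein lipase, had 3.03 in males and 0.27 in females. A difference between males and females was called in 12 probe sets of the ventricle (0.054%) and 4 of the cortex (0.018%), against 6.95% and 2.77% at an unadjusted p under 0.05. In ventricle the count was 4 without F76-3, 7 without M75-0 and 6 without M75-1. In cortex these were the Y-linked Kdm5d, Uty and Eif2s3y and a probe set of the Y chromosome without a symbol, which were higher in males in both tissues, as the sex labels require. The ventricle added Angptl4, higher in males by 2.27 ± 0.32 (adjusted p = 0.0106, limma), and Gm4841, F830016B08Rik, Nr4a1, Nr4a3, Cysltr1, B3galt1 and H2-Q5, lower in males, by 2.90 for Gm4841 down to 1.02 for H2-Q5 in log2 units. Angptl4 read 5.66 to 6.53 in the ventricles of the 3 males and 3.51 to 4.18 in those of the 3 females.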

How the data were processed

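Total RNA was extracted by the authors with a column kit, amplified, labelled with biotin and hybridized to Mouse Clariom S HT arrays, 1 per mouse and tissue. The deposited values are log2 levels from RMA, which subtracts background, normalizes arrays to each other and summarizes the probes of a set. The sources used here do not name the RMA version or the arrays normalized together. The table has 29129 entries. The test covered its 22206 gene-level probe sets and left out the other 6923, mostly controls. Symbols came from the platform annotation, which gave 1 symbol for 19572 probe sets and none for 2634. For the 55 genes with several probe sets, the set of highest mean was used. In 10 of these genes the sets disagreed in sign, in 1 of them with calls both ways.

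The 6 WT ventricle and 6 WT cortex arrays were compared with limma 3.58.1 (lmFit and eBayes, R 4.3.3) without a block, with the adjustment over all 22206 probe sets, and figures were drawn with matplotlib 3.10.9. Scripts were tested on simulated data. Arrays with the same code were read as the same mouse. Deviations of the ventricle and cortex arrays of a mouse from their tissue means correlated at -0.015 to 0.044, and 1 of 6 ventricle arrays correlated best with its own cortex. Named with values were the 15 highest and lowest genes, the extremes and markers of each list, pairs of related genes, the TatD family, housekeeping genes, genes called between sexes and the 8 with the largest SD per tissue. Other genes named in the text, such as further members of a list, were chosen after their values were seen. The members and the lists were chosen with earlier results of these data known. Alternatives were 5 scalings, 2 filters on dim probe sets, the mouse as a fixed or random block, sex as a term, array weights, trended robust variances, a Wilcoxon test, a test against 1 log2 unit, the mean of a gene's probe sets, either sex by itself, and leaving out each mouse. The number of arrays limits the precision.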

Additional observations from a re-analysis of the deposited data

Results flagged for a closer look

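For 233 genes given with values, each tissue's 6 arrays were searched by Dixon's test for 1 array apart from the rest. Of 466 groups, 32 (6.87%) had one, where chance gives about 1 in 20, and no mouse had more than 5 in a tissue. Among genes above background in ventricle, the array apart was that of F76-3 for Nr1d1 (5.79, others 8.59 to 9.12), Acsl6 (5.55, others 4.54 to 4.70) and Tbx20 (8.66, others 8.85 to 8.91). It was that of M75-1 for Myh7 (8.04, others 8.99 to 9.44), Bdh1 (8.23, others 7.70 to 7.87) and Klf2 (4.62, others 5.39 to 5.84), and that of M75-0 for Agtr1a (6.26) and Suclg2 (7.84). Near background in ventricle were Tubb4a (5.11 in F76-2), Brinp1 (1.75 in M75-0), Cpt1c (2.87 in M75-1), Ctnna2 (2.28) and Kcnj13 (3.53) in M75-2 and Exog (2.14 in F76-1).

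Among genes above background in cortex, Npas4 was low in M75-1 (2.63, others 5.50 to 6.58) and Rspo3 was low in F76-1 (3.11, others 5.10 to 5.82), as were the meningeal markers Slc22a8 (4.46, others 5.78 to 6.07) and Slc6a13 (4.09, others 5.0 to 5.41). Exog was low in M75-2 (4.27, others 5.27 to 5.62), Tpm2 was high in M75-1 (4.54), Bdh1 was low in F76-3 (5.88), Idh2 was low in M75-0 (5.87) and Snap25 was low in F76-2 (11.08). Near background in cortex were Gata4 (1.71), Hand2 (1.39) and Dsc2 (2.70) in M75-2, Hrc (1.80), Cox7a1 (2.17), Popdc2 (2.57) and Cysltr1 (1.20) in F76-2, Pln (1.47) in M75-0 and Nkx2-5 (1.59) in F76-1.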

How the results depend on the processing

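Scaling was the choice that changed counts. With arrays centred on their median, 13484 probe sets were higher (4845 by 1 unit or more). Centred on ribosomal protein and proteasome genes, 3036 were higher (1791 by 1 unit or more) and 14232 lower (6081). Centred on hybridization controls, an alternative chosen after seeing the data like the next, 19029 were called, 1681 higher (1166) and 17348 lower (12303). Centred on poly-A controls, 19732 were called, 1459 higher (979) and 18273 lower (14935). Under quantile normalization, both filters, both replicate blocks (6357 higher and 5797 lower with the fixed block), the other tests and each sex alone, the counts stayed within 1.5 times. Leaving out a mouse gave 6031 to 6282 higher and 5581 to 5708 lower. Among the genes with a printed difference, the replicate block changed no call but that of Cldn5. Males and females differed in the tissue difference in 2 probe sets with trended robust variances and in 0 under the other alternatives run for it, which were quantile normalization, the filter on the 30% dimmest, the replicate block and leaving out each mouse.

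Of 215 genes with a printed difference, 12 turned their sign with hybridization and poly-A centring, 7 with ribosomal centring and 3 with median centring. With hybridization and poly-A centring these were Tatdn1 (-0.08 and -0.24), Tatdn2 (-0.11 and -0.28), Tatdn3 (-0.17 and -0.34), Srrm4 (-0.13 and -0.29) and Atp5d (-0.21 and -0.38). With ribosomal, hybridization and poly-A centring they were Abcb1a (-0.01, -0.53 and -0.70), Gapdh (-0.28, -0.79 and -0.96), Bmp10 (-0.31, -0.82 and -0.99), C1qc (-0.31, -0.82 and -0.99), Aldoa (-0.48, -1.0 and -1.16), Unc13b (-0.48, -0.99 and -1.16) and Sln (-0.52, -1.03 and -1.20). Median centring gave C1qb 0.19, Hk1 0.22 and C1qa 0.25, quantile normalization gave C1qa 0.11, and array weights gave it 0.01. In males alone Sln was at -0.01 and Unc13b at -0.26, and with a mouse left out Unc13b lay between -4e-05 (without F76-2) and 0.37. List medians that turned with hybridization and poly-A centring were those of matrix (-0.06 and -0.23), proteasome (-0.40 and -0.57) and calcium handling (-0.48 and -0.65), and with ribosomal centring as well those of ribosomal proteins (-0.03, -0.55 and -0.71) and glycolysis (-0.48, -1.0 and -1.16). These centrings subtract a constant from each array. Which scale holds was not tested, and differences near background are lower bounds.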
